A study of Ovis aries and Bos taurus with 15 samples.

Results

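Mitochondrial fatty acid breakdown was followed in 3 groups of endothelial cells through 9 genes: CPT2, ACADM, ACADVL, HADHA, HADHB, ETFDH, ACAA2, ECH1 and UCP2. Members were taken from all probe sets, the groups of short probes that report 1 transcript, whose platform annotation gave exactly 1 gene symbol and that symbol was among these 9. The rule found 9 probe sets for 8 genes, out of 24016 probe sets tested and 9155 named genes. ECH1 had 2 probe sets, the others had 1 each, and ETFDH, the enzyme that passes the electrons of acyl-CoA oxidation to ubiquinone, had none under this rule and was not analysed here. UCP2 is a carrier of the inner mitochondrial membrane and no oxidation enzyme.

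The study asked what blocking PPARγ does to gene expression in pulmonary endothelial cells. Expression was measured on bovine Affymetrix arrays, 1 array for each of 15 samples. Bovine control cells labelled BAEC, for which no treatment is given, made up 5 arrays, ovine cells labelled PAEC that received GW9662 at 5 µM for 24 h made up 5, and ovine PAEC that received only the DMSO vehicle for 24 h made up 5. All cells were grown in DMEM with 10% fetal bovine serum. GW9662 binds PPARγ irreversibly and blocks it. Neither the animals of origin nor whether the replicates were separate cultures is given, and the p-values therefore cover the spread among these samples alone, which may be technical.

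Long chain fatty acids enter mitochondria as carnitine esters and are turned back into acyl-CoA by CPT2 at the inner membrane. Beta oxidation then shortens the chain in a repeating cycle of dehydrogenation, hydration, a second dehydrogenation and thiolysis, with a different set of enzymes for long and for medium chains. PPAR receptors, paired with RXR, are known in liver, heart and muscle to switch on many of these genes, with PPARα and PPARδ as the main drivers and PPARγ better known from fat storage. Endothelial cells draw most of their ATP from glycolysis, and are known to use fatty acid oxidation also to supply carbon for nucleotide synthesis.

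The deposited values are log2 signals from the authors' RMA, and they ran from 0.899 to 14.07. Signals near 2 to 3 lie at the low end of the scale, where the files cannot tell a low level from none, and 45.9% of the probe sets had a mean under 3 over the 15 arrays. Array medians ran from 3.17 to 3.27. The number of arrays limits the precision. Vehicle replicate 1 stood farther from its group than any other array, with a mean absolute deviation of 0.133 against 0.060 to 0.088 for the rest. The mean 3′ minus 5′ signal of 6 control transcripts, a sign of RNA quality, was 0.956 ± 0.074 in GW9662 arrays and 0.881 ± 0.043 in bovine arrays, against 1.18 ± 0.085 in vehicle arrays (SD, n = 5 each). Each of the first 2 groups lay wholly below vehicle on it (two-sided exact permutation test, p = 0.00794, the smallest that 5 against 5 arrays allow, and 0.00794 adjusted over both comparisons). Its part in the results was not tested beyond a fit that holds it as a covariate, given beside the calls it changes. Its control probe sets are bovine. Between bovine and ovine arrays RNA quality thus cannot be told apart from the match of sheep RNA to them. Of 14 endothelial markers measured, 1, 3 and 4 had group means under 3 in bovine, GW9662 and vehicle arrays. PECAM1, the adhesion molecule of endothelial junctions, averaged 11.68, 11.48 and 11.63 in bovine, GW9662 and vehicle arrays, while VWF, the clotting factor carrier of endothelium, was under 3 in all 3 groups. Group means under 3 in every group were found for 6 of 6 epithelial markers, 5 of 7 of smooth muscle (ACTA2, MYH11 and CNN1 among them) and 6 of 8 of fibroblasts (DCN, LUM and PDGFRA among them). COL1A2 and COL3A1, collagen genes of the fibroblast list, were bright in all groups, at 11.24 and 10.41 in bovine, 10.36 and 10.55 in GW9662 and 10.33 and 10.44 in vehicle arrays. Of 5 leukocyte markers, 5, 4 and 4 were under 3 in bovine, GW9662 and vehicle arrays, PTPRC in all of them, while CD14, the endotoxin co-receptor of monocytes, averaged 2.27, 6.72 and 6.69.

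**Figure D1:**
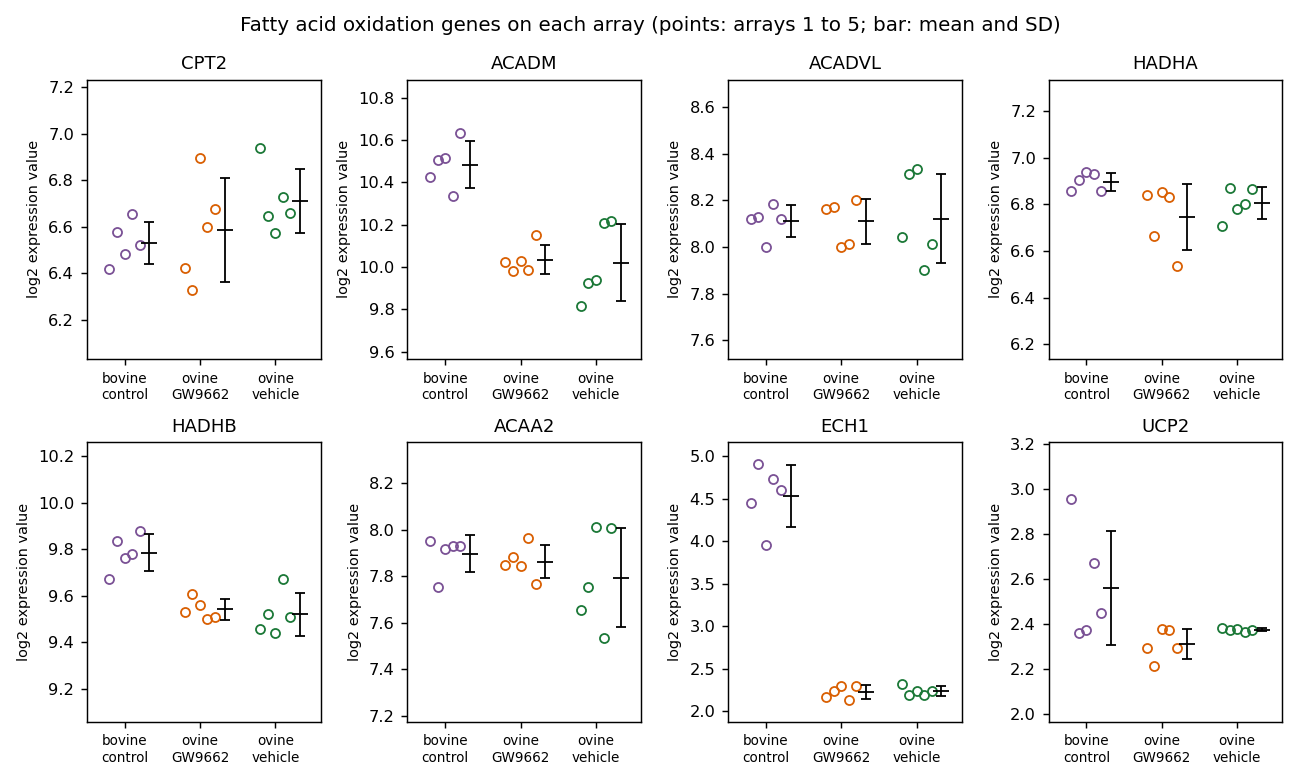
Log2 signal (RMA) of the 8 members on each of the 15 arrays, 1 panel per gene with its own axis and the brighter ECH1 probe set, with bovine control, ovine GW9662 and ovine vehicle from left to right. Points are arrays and bars are group means with the SD of 5 arrays; bovine arrays lie above both ovine groups for ACADM and ECH1, and the GW9662 and vehicle arrays overlap in every panel.

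The first comparison set GW9662 against vehicle in ovine PAEC. No member passed the test in either direction: of 9 probe sets, 0 had an adjusted p under 0.05 (limma, Benjamini-Hochberg over 24016 probe sets), and 1, the dimmer ECH1 probe set, had an unadjusted p under 0.05. Over all probe sets, 44 passed the adjusted threshold (0.183%) and 5141 the unadjusted one (21.4%). The groups overlapped for all 9 member probe sets, against 3514 probe sets, or 14.6%, whose groups did not. Taking 1 probe set per gene, 3 members had a positive difference and 5 a negative one, and their median was -0.01 on the log2 scale, against -0.02 over all probe sets. The members' differences ran from -0.13 to 0.07. Of 14 endothelial markers 0 passed, with 2 positive, 12 negative and 7 at an unadjusted p under 0.05 (limma). KDR differed most among them, by 1.15 (adjusted p = 0.217). The part of these markers in the member differences was not tested.

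Entry into mitochondria came first in the pathway. CPT2, which rebuilds acyl-CoA from acylcarnitine inside the mitochondrion, gave log2 signals of 6.42, 6.33, 6.90, 6.60 and 6.68 in GW9662 arrays, against 6.94, 6.65, 6.58, 6.73 and 6.66 in vehicle arrays. The GW9662 arrays held both the lowest values and one near the top of the vehicle range. The mean difference of -0.13 (SE 0.11, adjusted p = 0.448) was smaller than the SD of the GW9662 arrays, 0.22, and its 95% interval ran from 0.769-fold to 1.09-fold. With the 3′ minus 5′ signal as a covariate CPT2 turned to 0.33, or 1.26-fold (SE 0.11, adjusted p = 0.795).

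The acyl-CoA dehydrogenases make the first oxidation step. ACADVL acts on very long chains at the inner membrane, and its signals were 8.16, 8.17, 7.999, 8.01 and 8.20 in GW9662 arrays, against 8.05, 8.31, 8.34, 7.90 and 8.02 in vehicle arrays. Here the vehicle arrays held both the highest and the lowest value, and the GW9662 arrays lay between them. The difference was -0.01 (SE 0.091, adjusted p = 0.933), with a 95% interval of 0.859-fold to 1.15-fold. ACADM, the medium chain dehydrogenase, had signals of 10.03, 9.98, 10.03, 9.99 and 10.15 in GW9662 arrays, against 9.82, 9.92, 9.94, 10.21 and 10.22 in vehicle arrays. Again the treated arrays clustered inside the vehicle range. ACADM differed by 0.01 (SE 0.083, adjusted p = 0.917), with an interval of 0.886-fold to 1.15-fold.

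HADHA and HADHB encode the α and β subunits of the trifunctional protein, which carries out the last 3 steps of the cycle on long chains. HADHA gave 6.84, 6.66, 6.85, 6.83 and 6.53 in GW9662 arrays, against 6.71, 6.87, 6.78, 6.80 and 6.87 in vehicle arrays. GW9662 replicates 2 and 5 lay under the lowest vehicle array, and the other 3 lay within the vehicle range. The HADHA difference was -0.06 (SE 0.067, adjusted p = 0.542). HADHB gave 9.53, 9.61, 9.56, 9.50 and 9.51 in GW9662 arrays, against 9.46, 9.52, 9.44, 9.67 and 9.51 in vehicle arrays. These lay wholly inside the vehicle range. The HADHB difference was 0.02 (SE 0.044, adjusted p = 0.735), with an interval of 0.948-fold to 1.09-fold, the narrowest of the 6 members with a mean of at least 5.

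ACAA2, the mitochondrial thiolase that cleaves medium and shorter chains, gave 7.85, 7.88, 7.84, 7.96 and 7.77 in GW9662 arrays, against 7.65, 7.76, 8.01, 7.54 and 8.01 in vehicle arrays. The vehicle arrays were the more scattered, with an SD of 0.21 against 0.071 in GW9662 arrays. The difference of 0.07 (SE 0.095, adjusted p = 0.630) lay inside that scatter. ECH1, which moves a double bond of unsaturated acyl-CoA so that the cycle can go on, stayed between 2.12 and 2.30 in GW9662 arrays and between 2.18 and 2.32 in vehicle arrays on its brighter probe set. Its other probe set lay between 2.54 and 2.56 in GW9662 arrays and between 2.55 and 2.63 in vehicle arrays. UCP2 ran from 2.21 to 2.38 in GW9662 arrays and from 2.37 to 2.38 in vehicle arrays. All 3 of these sit at the low end of the scale, where a fall of ECH1 or UCP2 under GW9662 would not show.

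The 6 brighter members can also be read by their intervals. In the fit without the covariate, the 95% intervals of their GW9662 to vehicle ratios, not adjusted for the number of genes, all lay between 0.769-fold and 1.22-fold, and their adjusted p-values between 0.448 and 0.933. An adjusted p that misses the threshold does not show that GW9662 left these genes alone. With the covariate, on which the groups do not overlap, CPT2 lay outside these intervals at 1.26-fold and ACADVL moved to -0.19 (SE 0.16), so they hold for that fit alone. The count of members passing stayed at 0 in all alternatives tried and with each array left out. Over all probe sets the count in these fits ran from 0, as with the covariate, to 237, or 0.987%, with all 15 arrays in 1 fit. With so few called, a count of 0 members says little about them.

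**Figure D2:**
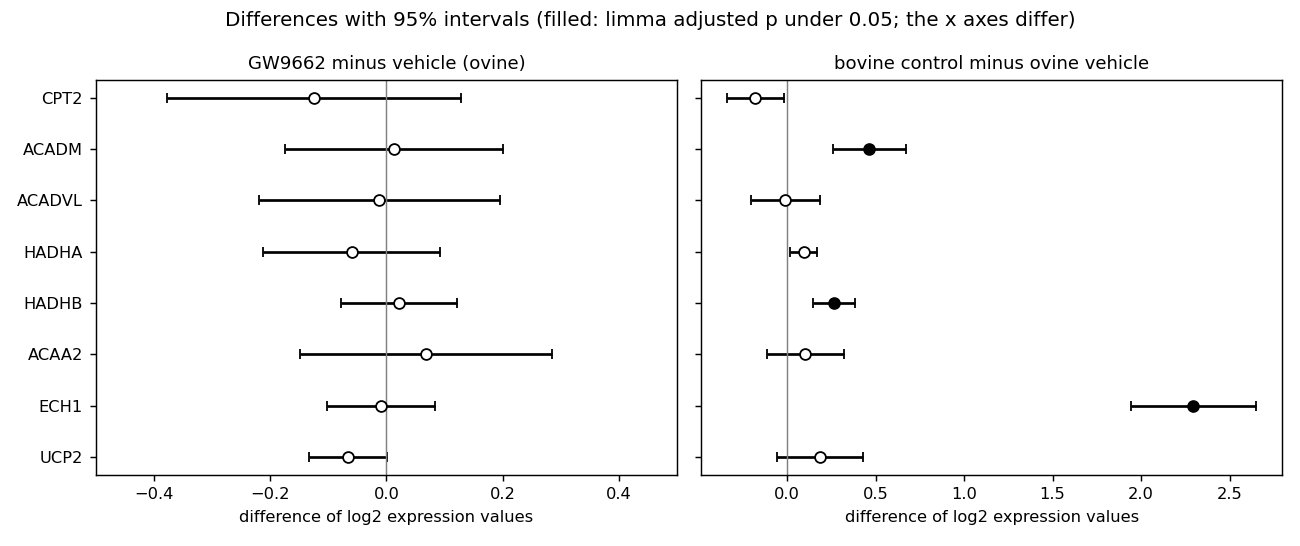
Log2 difference of each member with its 95% interval, filled where the adjusted p was under 0.05, for GW9662 minus ovine vehicle and for bovine control minus ovine vehicle. The GW9662 differences lie between -0.13 and 0.07 and none passed the test, while ACADM, HADHB and ECH1 are higher in bovine cells with intervals clear of 0.

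The second comparison set the bovine control cells against ovine vehicle cells. Species, cell source, vehicle, the 3′ minus 5′ signal and the match of sheep RNA to bovine probes cannot be told apart in it. No treatment is given for the bovine cells, while the ovine cells received vehicle. In bulk samples fewer expressing cells and less RNA per cell cannot be told apart either. ACADM, HADHB and ECH1 were higher in bovine cells, and 0 members were lower at the threshold. These are 3 of 9 probe sets called, where 10860 of all probe sets, or 45.2%, were called, 15.6% higher and 29.6% lower in bovine cells. Among the 13004 probe sets with a mean of at least 3, 52.1% were called. With every array centred on its median the called probe sets were 57.9% higher, against 34.4% as deposited and 47.4% after a second quantile normalisation. The same shares of all probe sets called were 26.9% with centring, where 4 members passed, 28.3% after the quantile step, where 3 did, and 6.67% with the 3′ minus 5′ covariate, where 1 did. The members' share was thus under the background as deposited and above it in those fits, and nothing is read from it. Differences of the 8 members lay between -0.18 and 2.30, 6 of them positive. Their median was 0.14, against -0.03 over all probe sets.

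ACADM had log2 signals of 10.42, 10.51, 10.52, 10.34 and 10.64 in bovine arrays, against 9.82, 9.92, 9.94, 10.21 and 10.22 in ovine vehicle arrays. Every bovine array lay above every vehicle array, with a gap of 0.12 between the closest pair. ACADM was 1.38-fold higher in bovine cells (log2 difference 0.46, SE 0.091, adjusted p = 0.00429, 95% interval 1.20-fold to 1.59-fold). Against the ovine GW9662 arrays the difference was 0.45 (adjusted p = 0.000222). With the 3′ minus 5′ signal as a covariate the difference from vehicle arrays was 0.26 and did not pass (adjusted p = 0.740). Bovine and vehicle arrays do not overlap on this covariate, so that fit cannot separate it from the group difference.

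HADHB had 9.67, 9.84, 9.76, 9.78 and 9.88 in bovine arrays, against 9.46, 9.52, 9.44, 9.67 and 9.51 in vehicle arrays. In all, 4 of 5 bovine arrays lay above all vehicle arrays, and bovine replicate 1 was level with the highest vehicle array, replicate 4. HADHB was 1.20-fold higher in bovine cells (log2 difference 0.27, SE 0.052, adjusted p = 0.00413, 95% interval 1.11-fold to 1.30-fold). Set against the GW9662 arrays it was 0.24 higher (adjusted p = 0.00105), and with the covariate 0.14 (adjusted p = 0.762), which did not pass. HADHA, its partner subunit, had 6.86, 6.90, 6.94, 6.93 and 6.86 in bovine arrays, against 6.71, 6.87, 6.78, 6.80 and 6.87 in vehicle arrays. Only 3 bovine arrays lay above all vehicle arrays, and the difference of 0.09 (SE 0.034, adjusted p = 0.0519) just missed the threshold. HADHA passed with arrays centred on their medians (0.13, adjusted p = 0.0455) and without vehicle replicate 2 (0.11, adjusted p = 0.0434) or 5 (0.11, adjusted p = 0.0380), and was 0.00 after a second quantile normalisation (adjusted p = 0.995).

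ECH1 gave the widest separation among the members. Its brighter probe set had 4.45, 4.91, 3.95, 4.73 and 4.61 in bovine arrays, against 2.32, 2.18, 2.24, 2.18 and 2.24 in vehicle arrays. The lowest bovine array lay 1.63 above the highest vehicle array, and the GW9662 arrays were as low as vehicle. The log2 difference was 2.30 (SE 0.16, adjusted p = 4.98e-06), a signal 4.91-fold higher, and it stayed past the threshold with the covariate (1.93, adjusted p = 0.0337). As the ovine arrays sat at the low end of the scale, the fold is uncertain in size, and low ECH1 expression in sheep cells cannot be told apart from a poor match to this probe set. The other ECH1 probe set had 2.56, 2.63, 2.54, 2.55 and 2.54 in bovine arrays, against 2.63, 2.55, 2.57, 2.61 and 2.56 in vehicle arrays. It differed by -0.02 (adjusted p = 0.469), so the probe sets of ECH1 disagree, with the second near the low end even in bovine cells. Averaged over both, the difference was 1.14 (adjusted p = 9.14e-06).

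The remaining members did not pass between species. CPT2 had 6.42, 6.58, 6.48, 6.65 and 6.52 in bovine arrays, against 6.94, 6.65, 6.58, 6.73 and 6.66 in vehicle arrays. Bovine replicates 1, 3 and 5 lay below all vehicle arrays and the other 2 within their range, for a difference of -0.18 (SE 0.070, adjusted p = 0.0623). CPT2 passed only without vehicle replicate 3, the lowest vehicle array (-0.21, adjusted p = 0.0402). ACADVL had 8.12, 8.13, 8.001, 8.18 and 8.12 in bovine arrays, all within the vehicle range given above, and a difference of -0.01 (SE 0.086, adjusted p = 0.923). The 95% interval of the ACADVL difference ran from -0.21 to 0.18. ACAA2 had 7.95, 7.75, 7.92, 7.93 and 7.93 in bovine arrays, also within the vehicle range, and a difference of 0.10 (SE 0.097, adjusted p = 0.379). UCP2, thought to carry 4-carbon metabolites out of the matrix, had 2.96, 2.36, 2.37, 2.67 and 2.45 in bovine arrays. With all 3 groups under 3, its difference of 0.19 (adjusted p = 0.171) says little about its level.

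ACADM and ECH1 were the 2 member probe sets of 9 whose bovine and vehicle arrays did not overlap, where 53% of all probe sets did not. All 3 called members stayed past the threshold with each array left out in turn, at 0.41 to 0.51 for ACADM, 0.24 to 0.30 for HADHB and 2.20 to 2.44 for ECH1. Without vehicle replicate 1, the array that stood apart, they were 0.41, 0.25 and 2.32. Endothelial markers moved with the same contrast: the mean over the 14 markers was 8.17 to 8.26 in bovine arrays against 7.70 to 7.80 in vehicle arrays. At the threshold 6 were higher and 4 lower. The largest difference was that of CLDN5, at 5.03 in bovine against 2.45 in vehicle arrays. The part of these markers in the member differences was not tested. TAGLN, an actin-binding protein of smooth muscle, was likewise higher in bovine arrays, averaging 9.001 against 7.16 in GW9662 and 7.18 in vehicle arrays. The summed signal of the 7 smooth muscle markers was 25.6 to 26.6 in bovine arrays against 21.8 to 23.1 in vehicle arrays. Of these 7 markers 2 were called higher and 1 lower in bovine cells, with 3 positive and 4 negative differences. COL1A2 of the fibroblast list was 0.91 higher in bovine cells (limma, adjusted p = 4.13e-06), the 1 marker of its 8 called higher. Among these 8 markers 4 were called lower, and 7 had a negative difference. The sum over the 8 fibroblast markers was 37.0 to 37.6 in bovine arrays against 36.4 to 37.2 in vehicle arrays. CD14 of the leukocyte list differed by -4.42 (adjusted p = 6.27e-10), and the sum over its 5 markers was 12.2 to 12.6 in bovine arrays against 16.9 to 17.3 in vehicle arrays. The part of these lists in the member differences was likewise not tested.

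Other genes of fatty acid oxidation were taken from 5 lists of 54 genes, of which 42 were measured. In the GW9662 comparison 0 of the 42 passed the test (limma), with a smallest adjusted p of 0.196. An unadjusted p under 0.05 was found for 13 of the 42, beside 21.4% of all probe sets. Groups did not overlap for 7 of the 42, beside 14.6% of all probe sets. The median difference of the 42 was -0.02, equal to that of all probe sets to 2 decimals, and 17 were positive and 25 negative. In the carnitine shuttle, 0 of 5 passed. SLC25A20, the carrier that brings acylcarnitine across the inner membrane to CPT2, averaged 7.55 ± 0.092 in GW9662 arrays and 7.26 ± 0.17 in vehicle arrays (SD, n = 5 each). All 5 GW9662 arrays lay above the vehicle arrays, by 0.29 on average (SE 0.081), and the adjusted p was 0.212. SLC22A5, the plasma membrane carnitine transporter, differed by 0.22 (adjusted p = 0.230), and CROT, the peroxisomal octanoyltransferase, by 0.17 (adjusted p = 0.379).

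Of the other mitochondrial beta oxidation genes, 0 of 15 passed, 5 positive and 10 negative with a median of -0.03. ACADSB, the dehydrogenase for short branched acyl-CoA, averaged 7.26 in GW9662 arrays and 6.97 in vehicle arrays (difference 0.30, SE 0.0996, adjusted p = 0.217). ACADS, the short chain dehydrogenase, averaged 6.34 in GW9662 arrays and 6.43 in vehicle arrays (difference -0.09, adjusted p = 0.217). ACADL, the long chain dehydrogenase, was under 3 in all groups. ETFA and ETFB, which hand electrons from the dehydrogenases to ETFDH, differed by 0.06 (adjusted p = 0.388) and 0.04 (adjusted p = 0.856).

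Of the peroxisomal genes 0 of 10 passed, 6 positive and 4 negative with a median of 0.12. SCP2, which encodes a sterol carrier and a thiolase for branched chains, averaged 11.21 ± 0.14 in GW9662 arrays and 10.96 ± 0.066 in vehicle arrays, without overlap (difference 0.25, SE 0.064, adjusted p = 0.196). ABCD3, an importer of fatty acids into peroxisomes, differed by 0.27 (adjusted p = 0.218), and DECR2, the peroxisomal dienoyl-CoA reductase, by -0.21 without overlap (adjusted p = 0.217). Among 9 regulators 0 passed and 6 had means under 3. PPARG, the receptor that GW9662 binds, was among the dim ones at 2.79 in GW9662 arrays and 2.82 in vehicle arrays. PPARD, the widely expressed PPAR of oxidative tissues, averaged 5.91 in GW9662 arrays and 6.08 in vehicle arrays (difference -0.17, adjusted p = 0.234), and PPARGC1A and NRF1, a coactivator and a factor of mitochondrial biogenesis, were under 3 throughout. Of the 3 other uncoupling proteins measured, UCP1 and UCP3 were under 3, and SLC25A14, a related brain carrier, differed by 0.03 (adjusted p = 0.831).

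**Figure D3:**
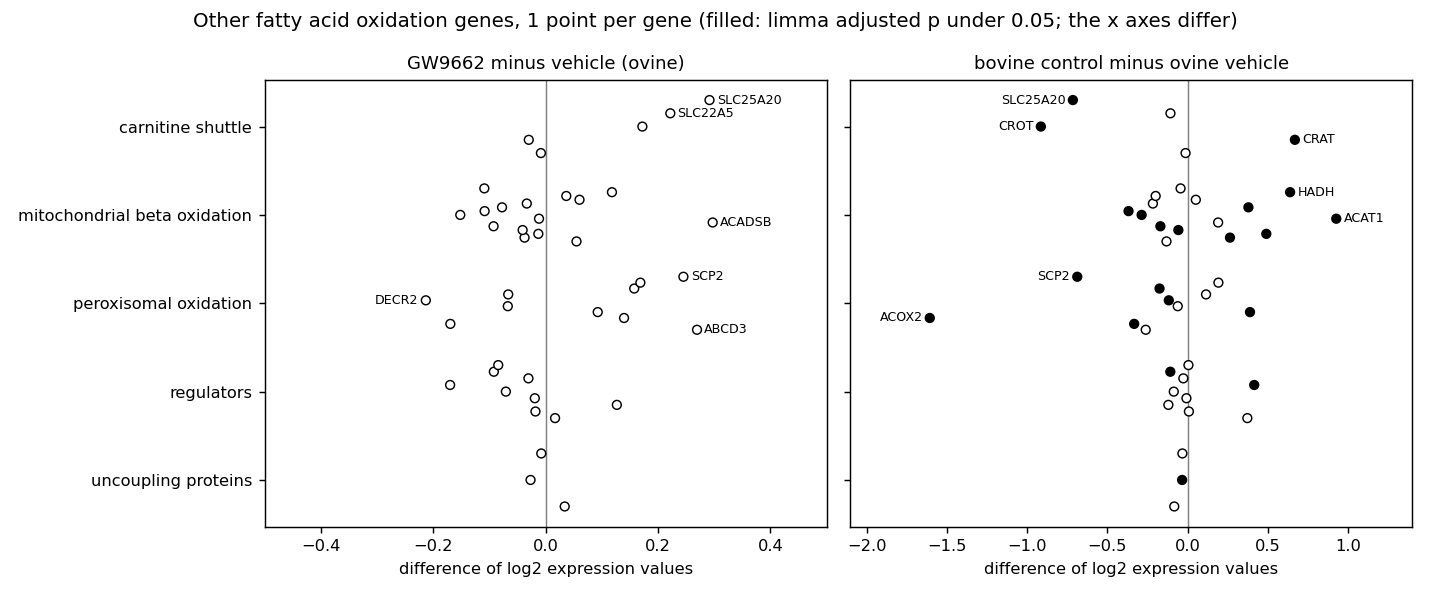
Log2 difference of the 42 other fatty acid oxidation genes by list, for GW9662 minus ovine vehicle and for bovine control minus ovine vehicle. Each point is a gene, and filled points passed the test: none for GW9662, and 21 of 42 for bovine control, 8 higher and 13 lower. Of all probe sets, 45.2% passed for bovine control.

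Between bovine and ovine vehicle cells 21 of the 42 passed, 8 higher and 13 lower in bovine cells. The background over all probe sets was 45.2%, with 15.6% higher and 29.6% lower. With arrays centred on their medians the called genes of the 42 were 8 higher and 6 lower, beside 26.9% of all probe sets called. With the 3′ minus 5′ covariate 3 of the 42 passed, beside 6.67% of all probe sets: ACAT1 higher and CROT and SCP2 lower. The other calls were lost with it. In the carnitine shuttle CRAT, the acetyl transferase, was higher (5.18 in bovine against 4.51 in vehicle arrays, difference 0.67, adjusted p = 0.00140; with the covariate 0.69 and adjusted p = 0.297). CROT was lower in bovine cells (5.95 in bovine against 6.86 in vehicle arrays, difference -0.91, adjusted p = 0.000276). SLC25A20 was lower too (6.55 in bovine against 7.26 in vehicle arrays, difference -0.71, adjusted p = 0.000368; with the covariate -0.99 and adjusted p = 0.0550). The other 2 of the 5 did not pass.

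Mitochondrial beta oxidation genes were 5 higher and 4 lower in bovine cells, with 6 not passing, beside 15.6% higher and 29.6% lower over all probe sets. ACAT1, the thiolase that splits acetoacetyl-CoA and also serves ketone metabolism, averaged 8.79 ± 0.066 in bovine arrays and 7.87 ± 0.074 in vehicle arrays (SD, n = 5 each), with no overlap. Its difference of 0.93 (SE 0.043, adjusted p = 3.45e-07) had the smallest p of the 42. HADH, the short chain hydroxyacyl-CoA dehydrogenase, was 0.64 higher without overlap (adjusted p = 1.79e-05), and 0.58 with the covariate (adjusted p = 0.0609). ECHS1, the short chain enoyl-CoA hydratase, was 0.37 lower on the log2 scale, at 10.15 in bovine arrays against 10.52 in vehicle arrays (adjusted p = 0.000256). With the covariate ECHS1 differed by -0.22 (adjusted p = 0.388). In the fit without the covariate ECHS1 was thus lower where HADH and ACAT1 were higher. These genes were named for their small p-values, and only ACAT1 among them passed with the covariate.

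Peroxisomal genes were 1 higher and 5 lower in bovine cells, with 4 not passing. Over all probe sets as deposited, 15.6% were called higher and 29.6% lower. SCP2 was lower by 0.69 on the log2 scale, at 10.28 in bovine arrays against 10.96 in vehicle arrays (adjusted p = 1.49e-05). ACOX2, the oxidase for bile acid precursors and branched chains, averaged 2.53 in bovine arrays, at the low end of the scale, against 4.14 in vehicle arrays. Its difference of -1.61 (adjusted p = 4.44e-05, and -1.58 with the covariate, adjusted p = 0.0769) is therefore uncertain in size. HSD17B4, the bifunctional enzyme of the peroxisome, differed by -0.18 with groups that overlapped (adjusted p = 0.00646), and by -0.085 with the covariate (adjusted p = 0.838). ACOX3, an oxidase for branched chains, was the 1 higher gene (7.56 in bovine against 7.17 in vehicle arrays, adjusted p = 0.00653). Its direction turned with the covariate, at -0.073 (adjusted p = 0.984).

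Among the regulators PPARD was higher in bovine cells, 6.49 against 6.08 in vehicle cells (adjusted p = 0.00247), and by 0.50 with the covariate (adjusted p = 0.256). PPARGC1A was called lower at 2.75 in bovine against 2.86 in vehicle arrays, and UCP1 by 0.03 on the log2 scale, both at the low end of the scale and not called with the covariate (adjusted p = 1.00 and 0.992). MLYCD, which removes the malonyl-CoA that holds back carnitine entry, differed by -0.12 (adjusted p = 0.0635). UCP3 differed by -0.03 (adjusted p = 0.0557) and SLC25A14 by -0.08 (adjusted p = 0.266).

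How the members varied from array to array within groups was described by correlating their deviations from the group means over the 15 arrays, which share extraction, array and normalisation; no test was made. Among the 15 pairs of the 6 brighter members, r lay between -0.50 and 0.54 and had a median of -0.07, with 6 positive pairs. The same median over all pairs of 5101 named genes with a mean of at least 5 was 0.10. ACADM and HADHB had the highest r, 0.54 (Spearman's rho 0.41, and r of 0.60 without the 2 arrays farthest from the median). HADHA and HADHB, neighbouring genes in the sheep assembly ARS-UI_Ramb_v3.0 that encode subunits of one complex, had an r of 0.08, with a rho of 0.16 and an r of -0.19 without the 2 farthest arrays. The lowest pair was HADHB with ACAA2, at -0.50.

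**Figure D4:**
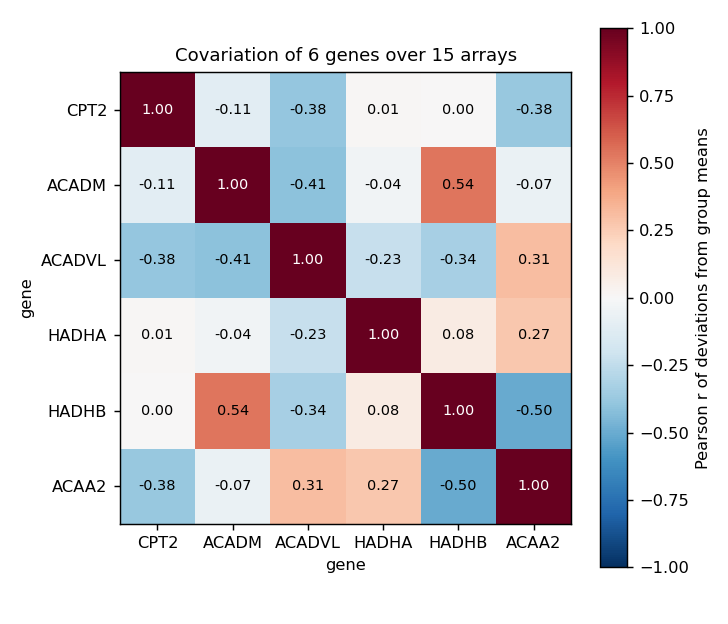
Pearson r between deviations of the 6 brighter members from their group means over 15 arrays. ACADM with HADHB has the highest value, 0.54, HADHA with HADHB is at 0.08, and the pairs scatter on both sides of 0.

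Among 5100 other named genes with a mean of at least 5, those whose array to array deviations were most like each member's had r of at most 0.93. CPT2 was most like FASTKD2, a mitochondrial RNA-binding protein (r = 0.91). ACADM was most like RBM22, a splicing factor (r = 0.90), TEX2 (r = 0.87) and MTIF2, a mitochondrial translation initiation factor (r = 0.86). ACADVL was most like SNRNP70, a protein of the U1 spliceosome particle (r = 0.93). HADHA was most like DECR2 of the peroxisomal list (r = 0.84), HADHB like CRELD2 (r = 0.79), and ACAA2 like RRP7 (r = 0.87). The values were picked as the highest of 5100 over 15 arrays and describe these arrays only.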

How the data were processed

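The deposited log2 values came from RMA as run by the authors (tool named in the submitters' processing notes, version not given); whether all 15 arrays were normalised together is not given in the sources used here. The 112 control probe sets were left out. In the platform annotation 13292 probe sets had 1 symbol, 86 several and 10638 none; only the first were named, and the brightest over the 15 arrays stood for its gene. For each comparison a linear model of its 10 arrays was fitted (limma 3.58.1, lmFit then eBayes, under R 4.3.3). Its p-values were adjusted over 24016 probe sets by Benjamini-Hochberg and called under 0.05. The fits were run on simulated data with known changes and independent noise for each probe set. These data held no shift between arrays and no 3′ minus 5′ difference, so they do not bear on those. Named were all members, and of each list up to 3 genes of smallest p per comparison; ACOX3, ETFA, ETFB and PPARG were added after their values were seen. Members and lists were chosen with earlier results of these data known. Neighbouring genes came from the RefSeq sheep annotation. Alternatives were centring, a second quantile normalisation, leaving out probe sets with a mean under 3, a trended robust variance, array weights, all 15 arrays in 1 fit, a replicate block, the 3′ minus 5′ covariate, a difference of at least 1, 1 probe set per gene, GW9662 arrays in place of vehicle, and each array left out. No probe or gene sequence was used.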

Additional observations from a re-analysis of the deposited data

Results flagged for a closer look

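In 27 sets of 5 arrays, 9 probe sets in 3 groups, the highest or lowest array was compared with the rest by Dixon's ratio. Chance picks about 1 in 20 such sets, and 3 of 27 stood apart. ACADM in GW9662 replicate 5 was 10.15, above the other GW9662 arrays, of which the nearest was 10.03. ACAA2 in bovine replicate 2 was 7.75, below the nearest bovine array at 7.92. The dimmer ECH1 probe set in bovine replicate 2 was 2.63, above the nearest bovine array at 2.56.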

How the results depend on the processing

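For GW9662 against vehicle, 0 members and 0 other pathway genes passed in any alternative. Member differences, those near 0 and CPT2 at -0.13, changed sign in some: with centring ACADVL 0.031 and ECH1 0.033; after a second quantile normalisation ACADM -0.023, HADHB -0.021 and ECH1 0.0095; with array weights ACADM -0.041 and ACAA2 -0.0015; with the 3′ minus 5′ covariate CPT2 0.33, ACADM -0.052, HADHB -0.033, ACAA2 -0.063, ECH1 0.071 and UCP2 0.018. With each array left out, ACADM ran from -0.038 to 0.063, ACADVL from -0.067 to 0.041 and ECH1 from -0.028 to 0.016. The causes were not tested. The 44 probe sets called were 67 with centring, 76 without dim probe sets, 26 with a trended robust variance, 237 with all 15 arrays, 0 with the covariate, 3 at a difference of at least 1, and 9 to 62 with each array left out (23, 22, 20 and 17 without GW9662 replicates 1, 2, 4 and 5, and 18 and 9 without vehicle replicates 2 and 5). Of the called, 79.5% were higher, 91.0% with centring and 61.3% after the quantile step.

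For bovine control against ovine vehicle, ACADVL was 0.024 with centring, 0.0012 against GW9662 arrays and -0.066 to 0.042 with each array left out, and with the covariate CPT2 was 0.060 and ACAA2 -0.082. The 10860 probe sets called were 6455 with centring, 6802 after the quantile step, 6575 without dim probe sets, 1601 with the covariate, 1304 at a difference of at least 1, 4019 with 1 probe set per gene, 7052 against GW9662 arrays, and 7335 to 10858 with each array left out. ECH1 was the 1 member called with the covariate or at a difference of at least 1, and other pathway genes called were 3 with the covariate and 1, ACOX2, at a difference of at least 1. Leaving out dim probe sets removes ECH1, whose mean over 15 arrays was 3.00 after rounding.

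Replicate numbers did not pair arrays: same-numbered deviations correlated at -0.19 to 0.17 between GW9662 and vehicle and at -0.10 to 0.09 between bovine and vehicle, and 0 of 5 arrays correlated best with their own number in either. With a replicate block 0 probe sets were called for GW9662 and 5396, or 22.5%, for bovine control, with ACADM, HADHB and ECH1 still called (adjusted p = 0.0152, 0.0121 and 0.000692). Low signal limits what can be said of ECH1 in ovine cells and of UCP2 in all groups.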
